A study of Mus musculus with 6 samples.

Results

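A set of 30 genes of the endoplasmic reticulum (ER) folding machinery and of the unfolded protein response was followed in mouse cultures. The sample titles call them primary aortic endothelial cells. These were 30 of the 18193 genes that had at least 1 probe set naming a single gene. The set was listed by gene symbol, with earlier results of these data known, so its shares are descriptive. For each gene the brightest of its probe sets over the 6 arrays was used. The set comprises 5 stress sensors and transcription factors, 9 chaperones and cochaperones, 6 lectin chaperones and disulfide isomerases, 7 genes of ER-associated degradation and 3 genes of the translocon.

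The transgenic group came from mice of strain C57 that carry a dominant negative human PPARG with the V290M substitution under the vascular endothelial cadherin (CDH5) promoter, and the other group came from non-transgenic C57 mice. PPARG is a nuclear receptor that is activated by fatty acid ligands. Every culture is a pool of 2 animals, 5 such cultures were made from the 10 mice of a group, and 3 of them, untreated, were hybridised to Affymetrix GeneChip mouse genome arrays from about 50 ng of RNA. The ages of the mice are not given in the sources used here, and the comparison asked which genes differ between transgenic and non-transgenic cells.

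Proteins that enter the secretory pathway are threaded through the translocon into the ER, where chaperones and disulfide isomerases fold them and where misfolded ones are passed back to the cytosol for degradation. When unfolded protein accumulates, the sensors ATF6, IRE1 (gene Ern1) and PERK (gene Eif2ak3) are released from the chaperone BiP (gene Hspa5). Cleaved ATF6 and the spliced form of XBP1 then switch on genes of folding and degradation, while PERK slows translation and leads to ATF4 and to DDIT3 (CHOP), a factor linked to cell death. Endothelial cells and fibroblasts secrete large amounts of matrix and so depend on this machinery.

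The best known control sequence of these genes is the ER stress response element (ERSE), which is bound by NF-Y at its first part and by ATF6 or XBP1 at its last part. It was searched as CCAAT, 9 bases of any kind and CCACG, on both strands of RefSeq's promoter windows (assembly GRCm38.p6), which run from 250 bases before to 50 bases after a gene's start. Windows were found for 25 of the 30 genes, all except Atf6, Hyou1, Manf, Derl1 and Sec61a1. Of these 25 genes, 9 (36%) held a full match, against 37 (0.137%) of the 27025 genes in the promoter table. The element was first described in promoters of genes of this kind, among them Hspa5, Hsp90b1 and Calr, so this share is a description of known sequence. All 10 matches are shown because they mark which members carry the element, each read on the strand on which CCAAT comes first, with its fixed letters in capitals and 5 flanking bases on either side.
Hspa5, chr2:34772025-34772043: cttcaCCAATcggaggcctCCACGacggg
Hsp90b1, first, chr10:86705638-86705656: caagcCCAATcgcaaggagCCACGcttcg
Hsp90b1, second, chr10:86705533-86705551: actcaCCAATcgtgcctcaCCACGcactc
Creld2, chr15:88819520-88819538: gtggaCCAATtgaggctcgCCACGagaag
Dnajc3, chr14:118937827-118937845: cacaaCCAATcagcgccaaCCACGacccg
Calr, chr8:84847075-84847093: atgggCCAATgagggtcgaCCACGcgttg
Canx, chr11:50325800-50325818: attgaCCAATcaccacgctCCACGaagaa
Pdia6, chr12:17266491-17266509: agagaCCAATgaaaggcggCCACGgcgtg
Syvn1, chr19:6046532-6046550: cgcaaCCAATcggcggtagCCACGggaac
Derl3, chr10:75893242-75893260: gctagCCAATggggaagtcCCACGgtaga

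The coordinates cover the 19 bases from CCAAT to CCACG without the flanks. The matches of Hspa5, Canx, Dnajc3, Pdia6, Syvn1 and the first of Hsp90b1 read in the direction of the gene. Those of Calr, Creld2, Derl3 and the second of Hsp90b1 lie on the other strand. The closest to a gene's start was that of Syvn1, which begins 44 bases before it, and the farthest was the first of Hsp90b1, at 212 bases. A related element, ERSE-II (ATTGG, 1 base of any kind and CCACG), was matched in 2 of the 25 genes (8%), against 0.0444% of all genes, and it does not overlap any of the ERSE matches.
Herpud1, chr8:94386377-94386387: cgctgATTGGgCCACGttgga
Dnajb11, chr16:22857852-22857862: cggcgATTGGcCCACGcctgg

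The Herpud1 match begins 52 bases before the gene's start and that of Dnajb11 begins 7 bases after it. Another element, UPRE (searched as TGACGTGG), was matched in 0 of the 25 genes and in 0.714% of all genes. With 1 mismatch allowed in the 10 fixed letters, a setting chosen after seeing the data, ERSE was matched in 15 of the 25 (60%, against 1.72% of all genes) and ERSE-II in 8 (32%, against 1.31%).

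**Figure D1:**
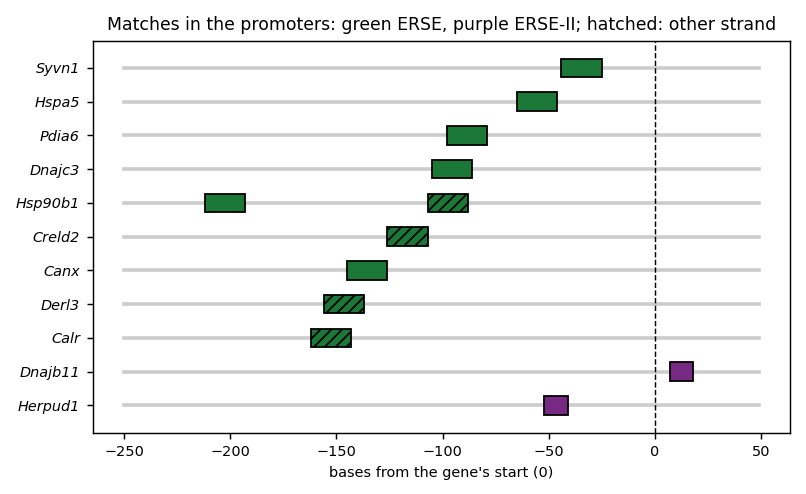
Position of the full matches of ERSE (green, 10 matches in 9 genes) and ERSE-II (purple, 2 genes) in the promoter windows, in bases from the gene's start at 0. Grey lines are the searched windows, hatched boxes lie on the strand opposite to the gene, and all ERSE matches lie upstream of the start.

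The promoters of 3 members are shown whole, each 300 bases on the strand of its gene, as examples of members that differ in size of difference and in motif. Hspa5 is the central chaperone and differed little, Creld2 had the smallest p of the set, and Sdf2l1 had the largest difference. Capitals mark the ERSE match in Hspa5 and, on the opposite strand, in Creld2. No full match was found in Sdf2l1, where capitals mark the run that differs from ERSE-II, read on the opposite strand, by 1 letter.
Hspa5, chr2:34771840-34772139, plus strand: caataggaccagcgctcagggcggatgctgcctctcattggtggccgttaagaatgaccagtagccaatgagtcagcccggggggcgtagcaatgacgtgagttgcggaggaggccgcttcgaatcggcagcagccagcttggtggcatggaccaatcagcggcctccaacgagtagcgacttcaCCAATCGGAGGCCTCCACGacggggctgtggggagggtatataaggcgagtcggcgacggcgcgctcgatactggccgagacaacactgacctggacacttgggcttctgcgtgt
Creld2, chr15:88819396-88819695, plus strand: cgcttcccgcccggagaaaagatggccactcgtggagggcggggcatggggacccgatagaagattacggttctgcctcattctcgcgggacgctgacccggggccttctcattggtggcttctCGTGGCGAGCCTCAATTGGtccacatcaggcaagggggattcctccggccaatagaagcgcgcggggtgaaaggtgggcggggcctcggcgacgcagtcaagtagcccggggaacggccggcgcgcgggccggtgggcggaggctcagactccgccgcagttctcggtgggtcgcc
Sdf2l1, chr16:17132334-17132633, minus strand: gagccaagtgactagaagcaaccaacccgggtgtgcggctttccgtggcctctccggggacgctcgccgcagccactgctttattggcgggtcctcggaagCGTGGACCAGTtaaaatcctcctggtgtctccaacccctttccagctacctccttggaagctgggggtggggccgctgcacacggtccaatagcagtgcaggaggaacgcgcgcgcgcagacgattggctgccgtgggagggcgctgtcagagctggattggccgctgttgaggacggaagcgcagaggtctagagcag

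Levels below are log2 of the deposited signal plus 16, and a difference is the transgenic minus the non-transgenic mean, which understates the change of dim genes. A gene was tested where its mean level reached 7.72, the median level on the array with controls left out, which 11208 genes did. The 6 arrays limit the precision of every value. Transgenic replicate 3 was unlike its group, since its rank correlation over tested genes averaged 0.907 with transgenic replicates 1 and 2 and 0.972 with the non-transgenic cultures. Counts are therefore given with all arrays and without this one. The median signal of an array was 180.9 ± 7.0 in the transgenic and 221.1 ± 1.6 in the non-transgenic group (SD, n = 3 each, exact permutation p = 0.1, two-sided, the smallest possible here), and its part in the results was not tested. Of 21 endothelial markers 8 were tested, while all 15 fibroblast markers were. Cdh5, the gene of the cadherin whose promoter drives the transgene, and Pecam1 lay below the level filter in every culture, at 4.66 to 7.19. The brightest endothelial markers, Cd34, Eng and Ramp2, lay at 7.94 to 12.76. The brightest fibroblast markers, Col1a2, Col3a1 and Pdgfra, lay at 14.18 to 14.82. Of 14 smooth muscle markers 8 were tested, and the brightest, Acta2, Mylk and Tagln, lay at 11.14 to 14.24. The brightest adipocyte markers, Fabp4, Lpl and Adipoq, lay at 8.30 to 15.18. In such bulk samples fewer cells of a type and less RNA per cell cannot be told apart.

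The folding machinery was read well above the filter. Of the 30 genes 29 were tested, with mean levels from 10.85 for Syvn1 to 15.06 for Calr. The exception was Derl3, a derlin of ER-associated degradation, at 5.07, 4.90 and 5.09 in the transgenic and 5.17, 4.88 and 5.15 in the non-transgenic cultures. Differences between the groups were small for most: 19 of 29 were under 0.25 in size, and 2, Sdf2l1 and Creld2, were over 0.5. In all, 18 were higher and 11 lower in the transgenic cultures, while 47.5% of all tested genes were higher. The median difference was 0.09, against -0.02 over all tested genes.

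With all 6 arrays no member passed limma's test at a Benjamini-Hochberg adjusted p of 0.05, and neither did any other gene (0 of 11208, 0%). The smallest adjusted p was 0.428. An unadjusted p under 0.05 was reached by 4 members, all higher (Sdf2l1, Creld2, Pdia6 and Sec61a1), which is 13.8% of those tested, against 6.47% of all genes. No member reached it in the lower direction, against 5.02% of all genes. In these same 4 members every transgenic culture lay above every non-transgenic one, which held for 9.39% of all genes, and in no member did all transgenic cultures lie below, against 6.72%.

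Without transgenic replicate 3, 19 members were higher (44.9% of all genes were), and limma called 6 members at an adjusted p of 0.05: Sdf2l1, Creld2, Manf, Pdia6, Dnajb11 and Sec61b. All 6 rose in the transgenic cultures, and they make up 20.7% of the members, against 6.88% of all genes called higher. No member was called lower, against 7.83% of all genes. This fit compares 2 transgenic with 3 non-transgenic cultures and called 14.7% of all genes in either direction. Leaving out any other single array gave 0 called members. The array was singled out because it resembles the non-transgenic cultures over all genes, so leaving it out favours calls, and these values are a description of the other 5 arrays.

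**Figure D2:**
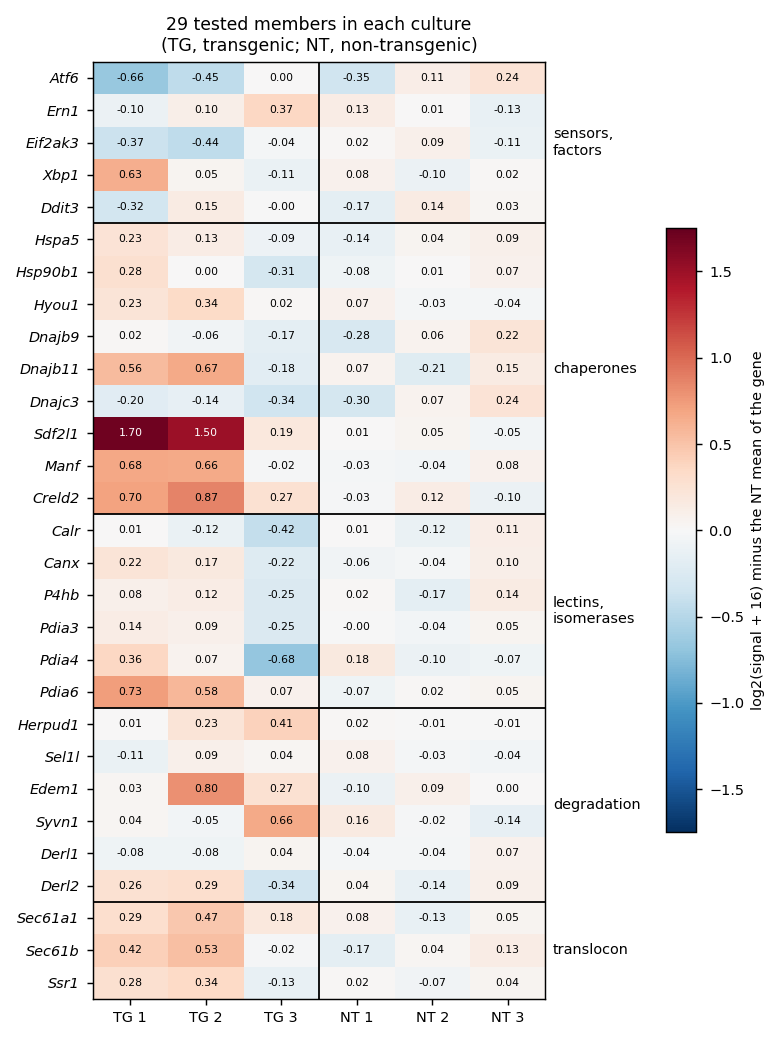
Level of the 29 tested members in each culture minus the non-transgenic mean of the same gene, on the log2(signal + 16) scale (red higher, blue lower), transgenic (TG) cultures left and non-transgenic (NT) cultures right. Sdf2l1 departs most, at levels of 12.39 and 12.19 in TG 1 and TG 2, 10.88 in TG 3 and 10.64 to 10.74 in the NT cultures.

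The transgenic cultures differed more among themselves than the non-transgenic ones. The SD over 3 cultures was wider in the transgenic group for 27 of 29 members, against 74.4% of all tested genes. The median SD of the members was 0.24 in the transgenic and 0.11 in the non-transgenic cultures, where all tested genes had 0.32 and 0.18. Transgenic replicates 1 and 2 both lay above every non-transgenic culture for 13 members (44.8%, against 22.8% of all genes) and both below for 3 (10.3%, against 27.4%). Replicate 3 lay below both of them in 20 of 29 members, against 34.4% of all genes. Against the non-transgenic cultures, replicate 3 was inside their range for 11 members (39.2% of all genes), below it for 10 (22.3% of all genes) and above it for 8 (38.4% of all genes).

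Among the sensors, no member reached an adjusted p of 0.05 with all arrays or without transgenic replicate 3. Atf6, the sensor that is cleaved to a transcription factor, was at 10.85, 11.06 and 11.51 in the transgenic cultures, against 11.16, 11.62 and 11.75 in the non-transgenic ones. Its difference was -0.37 ± 0.25 (SE, n = 3 per group, limma adjusted p = 0.555), the groups overlapped, and the second of its 3 probe sets went the other way, at 0.76 ± 0.27. That second probe set was at 11.18, 11.67 and 10.91 in the transgenic cultures, against 10.58, 10.16 and 10.73. Its groups did not overlap (limma unadjusted p = 0.0216, adjusted p = 0.316), and the third probe set gave -0.21 ± 0.22. The direction for Atf6 thus depends on the probe set. Without transgenic replicate 3 the difference of Atf6 was -0.55 ± 0.23 (SE, limma unadjusted p = 0.0413, adjusted p = 0.135), while the second probe set gave 0.93. Eif2ak3, the kinase PERK, was at 10.76, 10.69 and 11.09 in the transgenic cultures and at 11.15, 11.22 and 11.02 in the non-transgenic ones, a difference of -0.29 ± 0.20 (SE, limma adjusted p = 0.564). Transgenic replicates 1 and 2 were the 2 lowest, and replicate 3 lay among the non-transgenic cultures. Without replicate 3 the difference was -0.41 ± 0.19 (SE, limma adjusted p = 0.172). Ern1, the kinase and endonuclease IRE1, was at 11.69, 11.89 and 12.16 in transgenic cells, against 11.92, 11.80 and 11.66 in non-transgenic cells. Its values overlapped, with the highest in transgenic replicate 3. The difference was 0.12 ± 0.19 (SE) with all arrays and -0.0045 ± 0.17 without that replicate.

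The transcription factors of the response differed by less than the spread between cultures. Xbp1, whose mRNA is spliced by IRE1, was at 14.11, 13.53 and 13.37 in the transgenic cultures and at 13.56, 13.38 and 13.50 in the non-transgenic ones. Only transgenic replicate 1 stood high, and it did so on all 4 Xbp1 probe sets, at 13.57 to 14.23. The group difference was 0.19 ± 0.19 (SE, limma adjusted p = 0.692). Splicing of Xbp1 mRNA and the activity of the sensor proteins were not measured. Ddit3, the factor CHOP, was at 11.35, 11.82 and 11.67 in transgenic cells and at 11.50, 11.81 and 11.70 in non-transgenic cells, with overlapping groups and a difference of -0.05 ± 0.20 (SE, limma adjusted p = 0.921).

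The chaperones and cochaperones held the 2 largest differences of the set, those of Sdf2l1 and Creld2. Of the 9, limma called 4 higher without transgenic replicate 3, against 6.88% of all genes. With all arrays it called 0, and 2 were higher with an unadjusted p under 0.05, against 6.47% of all genes. Sdf2l1, a small ER protein that works in complexes with BiP and its J-domain partners, was at 12.39, 12.19 and 10.88 in the transgenic cultures, against 10.70, 10.74 and 10.64 in the non-transgenic ones. All transgenic values lay above all non-transgenic ones, but replicate 3 only by a small step. The difference was 1.13 ± 0.38 (SE), a 2.19-fold higher value, with an unadjusted p of 0.018 (limma adjusted p = 0.428), and without transgenic replicate 3 it was 1.60 ± 0.18, or 3.03-fold (limma adjusted p = 0.00402). It has 1 probe set, so no second reading exists.

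Creld2, an ER protein with disulfide isomerase activity that is induced by ER stress, was at 12.52, 12.69 and 12.09 in transgenic cells and at 11.79, 11.94 and 11.72 in non-transgenic cells. The groups did not overlap, and this member had the smallest p of the set. Its difference was 0.62 ± 0.20 (SE, unadjusted p = 0.0139, limma adjusted p = 0.428) and 0.79 ± 0.16 without transgenic replicate 3 (limma adjusted p = 0.0189). Its ERSE match, shown above, lies at the same place as that of the mannosyltransferase gene Alg12, which starts on the other side of it on the opposite strand and was named after its values were seen. Alg12 was at 10.90, 10.37 and 10.99 in transgenic cells, against 10.64, 10.68 and 10.28 in non-transgenic cells, a difference of 0.22 ± 0.25 (SE, limma adjusted p = 0.725) with overlapping groups.

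Manf, a small ER protein that binds BiP and is also secreted, was at 13.97, 13.95 and 13.27 in the transgenic cultures, against 13.26, 13.25 and 13.37 in the non-transgenic ones. Replicates 1 and 2 stood apart from all others, while replicate 3 lay inside the non-transgenic range. The difference was 0.44 ± 0.20 (SE, limma adjusted p = 0.439) with all arrays and 0.67 ± 0.11 without transgenic replicate 3 (limma adjusted p = 0.0108). Dnajb11, a J-domain cochaperone that hands unfolded proteins to BiP and carries the ERSE-II match, was at 13.26, 13.37 and 12.52 in transgenic cells and at 12.77, 12.49 and 12.85 in non-transgenic cells. The pattern was that of Manf, with a difference of 0.35 ± 0.24 (SE, limma adjusted p = 0.555) and of 0.61 ± 0.15 without transgenic replicate 3 (limma adjusted p = 0.0363).

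For Hspa5, Hsp90b1, Hyou1, Dnajb9 and Dnajc3 the differences were between -0.23 and 0.20. Hspa5 was at 14.63, 14.53 and 14.31 in the transgenic cultures and at 14.26, 14.44 and 14.49 in the non-transgenic ones, with overlapping groups. Its difference was 0.09 ± 0.12 (SE, limma adjusted p = 0.759), and its second probe set, nearly as bright, gave 0.11 ± 0.11, while the dimmest gave 0.78 ± 0.34. Hsp90b1, the ER member of the HSP90 family, was at 14.50, 14.22 and 13.91 in transgenic cells and at 14.14, 14.23 and 14.29 in non-transgenic cells. Here replicate 1 was the highest and replicate 3 the lowest of all 6 cultures, and the difference was -0.01 ± 0.15 (SE, limma adjusted p = 0.98). Hyou1, the nucleotide exchange factor of BiP, differed by 0.20 ± 0.15 (SE), and the J-domain proteins Dnajb9 and Dnajc3 by -0.07 ± 0.15 and -0.23 ± 0.16. None of these 5 passed in either fit.

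**Figure D3:**
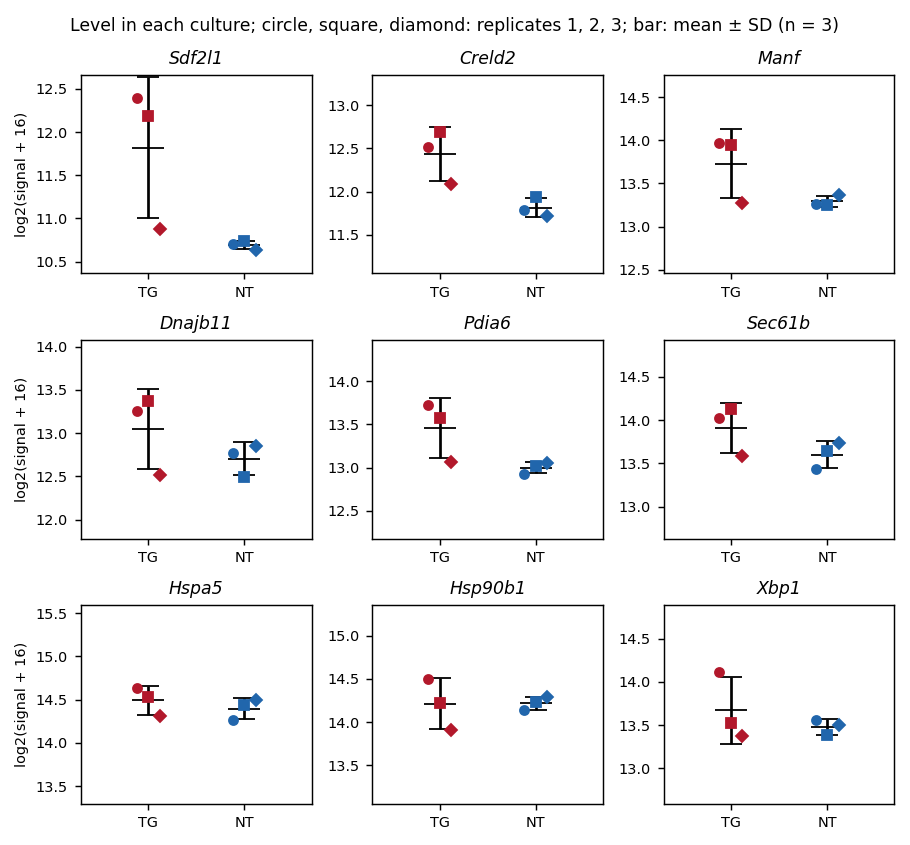
Level, as log2(signal + 16), of 9 members in each culture, transgenic (TG) left and non-transgenic (NT) right, with mean ± SD (n = 3). The 6 members of the upper panels were called without TG 3, the diamond, which is the lowest point of each transgenic group there, and Hspa5, Hsp90b1 and Xbp1 are shown for comparison on axes of the same length.

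Among lectin chaperones and disulfide isomerases, Pdia6 was set apart. Pdia6, an isomerase that also restrains the stress sensors, was at 13.73, 13.58 and 13.07 in the transgenic cultures, against 12.93, 13.02 and 13.05 in the non-transgenic ones, so that replicate 3 only just cleared the non-transgenic range. The difference was 0.46 ± 0.18 (SE, unadjusted p = 0.0372, limma adjusted p = 0.428) and 0.66 ± 0.12 without transgenic replicate 3 (limma adjusted p = 0.0147). Its dimmer second probe set gave 0.55 ± 0.27. The other 5 did not pass in either fit. They were Calr (-0.18 ± 0.13) and Canx (0.06 ± 0.14), the lectins that hold glycoproteins, P4hb (-0.01 ± 0.13), which is also a subunit of collagen prolyl hydroxylase, Pdia3 (-0.01 ± 0.13), the partner of the lectins, and Pdia4 (-0.09 ± 0.26). On the probe set used for each of these 5, transgenic replicate 3 was the lowest of the 6 cultures, from 12.61 for Pdia4 to 14.73 for Calr. The other probe sets of Calr and the second of Canx also had it lowest. The second of Pdia3 (0.46 ± 0.23) and the third of Canx (0.30 ± 0.19) had it above all non-transgenic cultures, at 10.93 and 11.56.

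The 3 translocon members had positive mean differences, and with all arrays limma called 0 of them. An unadjusted p under 0.05 was reached by 1, against 6.47% of all genes in the higher direction. Sec61a1, the channel subunit, was at 13.66, 13.84 and 13.55 in transgenic cells, against 13.45, 13.24 and 13.42 in non-transgenic cells, and its groups did not overlap. The difference was 0.31 ± 0.13 (SE, unadjusted p = 0.0423, limma adjusted p = 0.428) and 0.38 ± 0.13 without transgenic replicate 3 (limma adjusted p = 0.0831). Of its 6 probe sets 5 lay higher and the fourth by level lower, at -0.40 ± 0.27. Sec61b, the beta subunit, was at 14.02, 14.13 and 13.58 in transgenic cells and at 13.43, 13.64 and 13.73 in non-transgenic cells, where replicate 3 again lay among the non-transgenic values. Its difference was 0.31 ± 0.17 (SE, limma adjusted p = 0.477) and 0.48 ± 0.13 without transgenic replicate 3 (limma adjusted p = 0.042). Ssr1, a subunit of the translocon-associated protein complex, differed by 0.17 ± 0.14 (SE, limma adjusted p = 0.621), its replicate 3, at 13.85, lay below all non-transgenic values, and its 4 probe sets ran from -0.49 ± 0.36 to 0.69 ± 0.33.

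Genes of ER-associated degradation gave no call in either fit. Of the 6 tested, 5 had a difference above 0 and 1 below. Edem1, which takes misfolded glycoproteins to degradation, was at 11.18, 11.95 and 11.42 in the transgenic cultures and at 11.05, 11.24 and 11.15 in the non-transgenic ones, a difference of 0.37 ± 0.24 (SE, limma adjusted p = 0.534). Its second probe set gave 1.05 ± 0.40, with 12.24, 12.08 and 10.84 in transgenic cells, against 11.20, 10.42 and 10.40 in non-transgenic cells, so the probe sets place replicates 1 and 3 differently. Syvn1, the ubiquitin ligase HRD1, was at 10.78, 10.69 and 11.40 in transgenic cells and at 10.90, 10.72 and 10.60 in non-transgenic cells. It was highest in transgenic replicate 3, as was Herpud1, a membrane protein of the ligase complex, at 11.82, 12.04 and 12.22 in transgenic cells, against 11.83, 11.80 and 11.80 in non-transgenic cells. The ligase partner Sel1l (0.00 ± 0.12) and the derlins Derl1 (-0.03 ± 0.11) and Derl2 (0.07 ± 0.18), which belong to the channel back to the cytosol, had differences smaller than their SE. Other probe sets of Derl1 gave 0.45 ± 0.16, -0.16 ± 0.20 and 0.45 ± 0.22, the second of Sel1l gave 0.39 ± 0.17 and the second of Derl2 gave -0.19 ± 0.21.

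**Figure D4:**
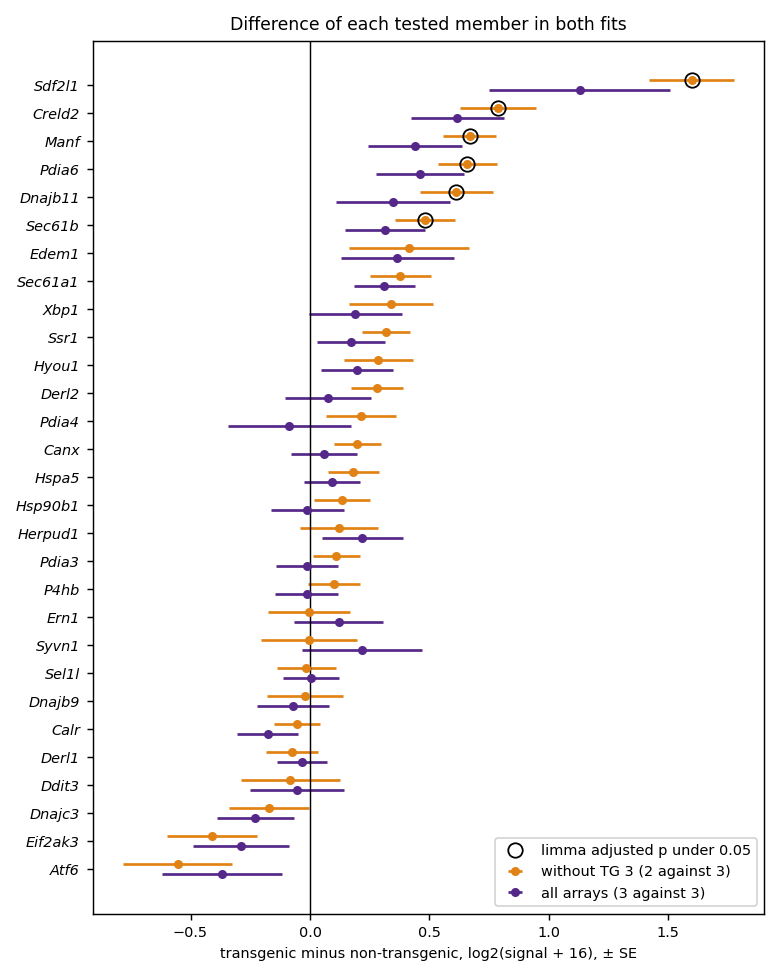
Difference of each tested member with limma's SE, as transgenic minus non-transgenic log2(signal + 16), with all arrays (purple) and without transgenic replicate 3 (orange), ordered by the orange points. Black rings mark the 6 members with an adjusted p under 0.05, from Sec61b at 0.48 to Sdf2l1 at 1.60, and no purple point has one.

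Many members are read by more than 1 probe set, and these did not always point the same way. Of 77 probe sets for the 30 genes 68 lay above the filter, and 19 genes had several there. In 11 of these 19 genes all such probe sets had the same sign of difference. When each gene was represented by the mean of all its probe sets, Atf6 turned to 0.06 and Eif2ak3 to 0.26. For Eif2ak3 only the probe set used above, at -0.29, lay over the filter. Its other probe sets, at mean levels of 7.16 and 5.98, differed by 0.37 and 0.71. The turn of Eif2ak3 thus rests on readings below the filter. Ern1 had no value under this rule. Sdf2l1, Creld2, Manf and Dnajb11, with 1 probe set each, cannot change.

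Members with and without the element were compared by counts. Of the 8 tested members with a full ERSE match, 2 (Creld2 and Pdia6) were called without transgenic replicate 3, where 6.88% of all genes were called higher, and their median difference was 0.08 with all arrays. Of the 16 members whose promoter was searched and held no full ERSE match, 3 (Sdf2l1, Dnajb11 and Sec61b) were called, and the median was 0.10. Dnajb11 and Herpud1, which hold a full ERSE-II match, are counted among these 16, so the split depends on the element chosen. Among the 28 other genes with a match 7 were tested, of which 0 were called higher and 1 was called lower without transgenic replicate 3, with a median difference of 0.02.

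Other genes of the pathway were counted from lists chosen by function. Of 133 listed genes outside the set 123 were tested, 80 of them higher and 43 lower, with a median of 0.07. None was called by limma with all arrays, and 12 reached an unadjusted p under 0.05 in the higher and 2 in the lower direction, where 6.47% and 5.02% of all genes did. Without transgenic replicate 3, 12 were called higher and 1 lower, against 6.88% and 7.83% of all genes. Within these lists, folding and redox genes had a median of 0.07 over 39 genes, with 6 higher and 1 lower at an unadjusted p under 0.05 and 5 called higher without transgenic replicate 3. Translocon and signal peptidase genes had a median of 0.13 over 22, with 1 and 0 at that p and 3 called. Oligosaccharyltransferase and glycan trimming genes had 0.13 over 18, with 3 and 0 at that p and 2 called.

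The leading folding gene was Fkbp11, an ER proline isomerase, at 12.05, 12.04 and 10.95 in the transgenic cultures, against 10.52, 10.38 and 10.21 in the non-transgenic ones. Its groups did not overlap, and the difference of 1.31 ± 0.32 (SE, unadjusted p = 0.00375, limma adjusted p = 0.428) exceeded that of Sdf2l1 in size. The disulfide isomerase Pdia5 was at 12.17, 12.11 and 11.33 in transgenic cells and at 10.90, 10.91 and 11.01 in non-transgenic cells, a difference of 0.93 ± 0.25 (SE, limma adjusted p = 0.428). Srprb, a subunit of the receptor for the signal recognition particle, differed by 0.59 ± 0.19, Mcfd2, a cargo receptor subunit, by 0.61 ± 0.20 and Prkcsh, a subunit of glucosidase II, by 0.46 ± 0.15, each with a limma adjusted p of 0.428. In the lower direction Tmx4, a membrane-bound thioredoxin-like protein, differed by -0.42 ± 0.16 (SE, limma adjusted p = 0.428).

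The genes downstream of PERK pointed in both directions. Of 12 tested genes of the integrated stress response 6 were higher and 6 lower, with a median of 0.08. Without transgenic replicate 3 limma called 2 higher and 1 lower, against 6.88% and 7.83% of all genes. Asns, the asparagine synthetase that ATF4 induces, was at 13.49, 13.72 and 13.30 in transgenic cells and at 12.98, 12.83 and 12.79 in non-transgenic cells, with groups that did not overlap and a difference of 0.64 ± 0.15 (SE, limma adjusted p = 0.428). Atf4, the factor whose translation rises when PERK is active, was at 14.14, 14.17 and 13.49 in transgenic cells, against 13.48, 13.36 and 13.55 in non-transgenic cells, a difference of 0.47 ± 0.19 (SE, limma adjusted p = 0.428) with replicate 3 inside the non-transgenic range. Cebpg, a partner of ATF4, differed by -0.58 ± 0.21, and Ppp1r15a, which helps to restore translation, by -0.23 ± 0.19 (SE). The 22 other tested genes of ER-associated degradation split 11 to 11 with a median of -0.00, and 0 reached an unadjusted p under 0.05. The 10 sensor partners split 5 to 5 with a median of 0.04 and 0 at that p.

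Cell cycle genes were highest in the same 2 transgenic cultures. Relative to the non-transgenic mean, the median shift of the 29 members was 0.22, 0.13 and -0.02 in the transgenic cultures and 0.00, -0.02 and 0.05 in the non-transgenic ones. Over all tested genes it was -0.02, -0.08 and 0.09 in the transgenic and 0.02, 0.01 and -0.02 in the non-transgenic cultures. The same median over 24 cell cycle genes was 1.71, 2.13 and -0.02 in the transgenic and 0.58, -0.23 and -0.30 in the non-transgenic cultures. All 24 lay higher, against 47.5% of all genes. Without transgenic replicate 3 limma called 22 of them higher, against 6.88% of all genes. The summed signal of the 24 was 111854, 145239 and 48709 in the transgenic, against 56758, 44803 and 44167 in the non-transgenic cultures. The part of cell division in the results for the folding genes was not tested.

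**Figure D5:**
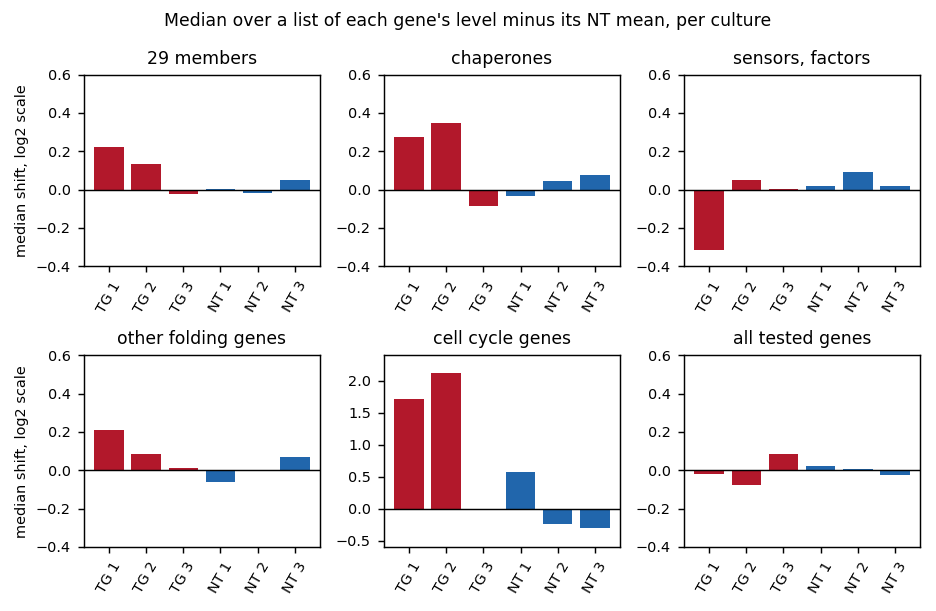
Median over a list of each tested gene's level minus its non-transgenic mean, per culture (log2(signal + 16) scale, red transgenic TG, blue non-transgenic NT). Members, chaperones and cell cycle genes stand highest in TG 1 and TG 2 and near 0 in TG 3, and the cell cycle panel has a longer axis.

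Markers of other cells and RNA measures also differed between cultures. Summed leukocyte and macrophage signal was 12207, 23133 and 5852 in the transgenic cultures, against 5778, 4233 and 4925 in the non-transgenic ones, with 6, 12 and 5 of 20 markers above the filter, against 6, 5 and 6. Ptprc, which defines leukocytes, lay below the filter in every culture, at 5.83 to 7.66. Of the 5 tested markers 3 were higher and 2 lower, while 47.5% of all genes were higher. Among the higher ones Cd53 was at 12.65, 13.29 and 8.43 in the transgenic, against 10.41, 8.60 and 7.74 in the non-transgenic cultures. Adipocyte markers summed to 50339, 28456 and 52919 in the transgenic and 99113, 64833 and 66371 in the non-transgenic cultures, and 8 of 8 tested were lower. Plasma cells are rich in ER, and 2 of their 8 markers were tested, with Jchain and Mzb1 below the filter in every culture, at 4.60 to 7.33. Of the tested ones, Sdc1, a proteoglycan that many other cells make, was at 13.38, 13.94 and 13.63 in the transgenic and 13.89, 13.46 and 13.68 in the non-transgenic cultures. Irf4, a factor also made by other immune cells, was at 5.98, 7.19 and 8.65 in the transgenic, against 10.59, 9.27 and 9.50 in the non-transgenic cultures. Both differences were negative, with a median of -1.27, and 1 marker was called lower without transgenic replicate 3, against 7.83% of all genes. Gapdh control probe sets at the 3′ and 5′ ends, which compare the ends of a transcript, had a ratio of 1.33 ± 0.12 in the transgenic and 1.59 ± 0.11 in the non-transgenic group (SD, n = 3 each, exact permutation p = 0.1, two-sided, the smallest possible here). With that ratio as a covariate the median difference of the members turned to -0.10. The same measure for actin was 1.74, 1.40 and 2.21 in the transgenic, against 2.17, 2.00 and 1.83 in the non-transgenic cultures. Between the groups it gave an exact permutation p of 0.5. It was lowest in transgenic replicates 1 and 2 and highest in transgenic replicate 3. Adjusted for the actin measure, the median difference of the members was 0.01. The part of these cells and of RNA quality in the results was not tested.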

How the data were processed

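The authors' deposited values are one MAS5 intensity for every probe set of each array, on a linear scale. MAS5 is named in the submitters' processing notes, without a version. The trimmed mean was 1500 on every array, so the deposited scaling was kept. Of 45101 probe sets, 64 were controls, 34945 were annotated with 1 gene, 932 with several genes and 9160 with none, and only those with 1 gene were named, after symbols had been brought up to date through RefSeq's mouse gene identifiers.

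Values were computed as log2(intensity + 16). Each gene was represented by its brightest probe set, and the groups were compared in R 4.3.3 with limma 3.58.1 (lmFit, eBayes with a trend, two-sided) over 11208 genes with Benjamini-Hochberg adjustment. SEs are limma's moderated ones. The replicates are separate cultures, grouped and numbered by the sample titles. Same-numbered cultures did not deviate together from their group means (correlations of 0.04, -0.28 and -0.03). With known changes put into simulated arrays of 11208 genes, 3 against 3 arrays detected 36 of 100 genes at 2-fold and 78 of 100 at 4-fold (5 of 119 calls were false), and 2 against 3 arrays detected 23 and 72 (12 of 107 calls were false). The simulated noise was independent, with the same SD in both groups and no array unlike its group. The real arrays differ in both respects, so these rates do not describe the fits reported here.

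The members and gene lists were chosen with earlier results of these data known. Values per culture are given for the sensors, for Hspa5, Hsp90b1, Xbp1 and Ddit3, for members with an unadjusted p under 0.05, with groups that do not overlap or called without transgenic replicate 3, and for others where a probe set or replicate is discussed. From each pathway list up to 2 genes per direction with the smallest p could be named. Alternatives were other pseudocounts, filters, scalings, probe set rules, array weights, a replicate block, 3′ to 5′ ratios as covariates, and each array left out in turn. Protein sequences were not used here.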

Additional observations from a re-analysis of the deposited data

How the results depend on the processing

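No member changed direction under either other pseudocount or median centring, while the other filters and the replicate block leave a gene's difference as it is by construction. With the replicate block 2 members, likewise 2 after median centring and 2 when the actin 3′ to 5′ ratio was a covariate, reached an unadjusted p under 0.05 in the higher direction. For these and the other alternatives the share of all genes at that p was not counted. With the Gapdh ratio as a covariate 11 members were higher, 0 reached that p higher and 1 lower, the median was -0.10, and Hspa5 (-0.13), Dnajb11 (-0.14), Canx (-0.22), Edem1 (-0.093), Derl2 (-0.29), Sec61b (-0.16) and Ssr1 (-0.10) changed sign. Other leading members kept their sign with smaller differences: Sdf2l1 (0.41 ± 0.57, SE), Creld2 (0.25 ± 0.28), Manf (0.017 ± 0.28), Pdia6 (0.12 ± 0.28) and Sec61a1 (0.17 ± 0.21). The actin covariate turned Canx (-0.056) and Derl2 (-0.092). Array weights, which lean on transgenic replicate 1 (weight 5.24) and non-transgenic replicate 2 (4.65), called 18 members and 5504 of the 11208 genes. At an unadjusted p under 0.05, 15 members were higher and 4 lower (Atf6, Eif2ak3, Ddit3 and Dnajc3), and the median was 0.17. These weights turned Ern1 (-0.064), Hsp90b1 (0.23), Calr (0.060), P4hb (0.16), Pdia3 (0.14), Pdia4 (0.38) and Sel1l (-0.077). The mean of all probe sets gave a median of 0.20. It turned Atf6 (0.061), Eif2ak3 (0.26), Hsp90b1 (0.043), Pdia3 (0.22), Derl1 (0.18) and Derl2 (-0.057). The turn of Eif2ak3 rests on probe sets below the filter, and Ern1 had no value under this rule. Quantile normalization turned P4hb (0.048) and Sel1l (-0.021). The cause of these changes was not tested. Leaving out each array in turn gave 0 to 6 called members, 0 to 1649 called genes, 1 to 9 members higher and 0 to 1 lower at an unadjusted p under 0.05, and a median of 0.063 to 0.18, with the highest values without transgenic replicate 3. The sign then depended on the array left out for Canx (-0.024 to 0.20), Ddit3 (-0.16 to 0.079), Derl1 (-0.075 to 0.0038), Derl2 (-0.035 to 0.28), Dnajb9 (-0.21 to 0.038), Ern1 (-0.0045 to 0.23), Hsp90b1 (-0.16 to 0.14), P4hb (-0.096 to 0.10), Pdia3 (-0.086 to 0.11), Pdia4 (-0.31 to 0.21), Sel1l (-0.040 to 0.063), Syvn1 (-0.0047 to 0.35) and Xbp1 (-0.028 to 0.34).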
